A study of Rattus norvegicus with 6 samples.

Results

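miR-21-5p, the 5′ strand of the miR-21 hairpin, had the most counts of any mature miRNA in the small RNA of extracellular vesicles released by rat BMSCs, adherent stromal cells of the bone marrow kept in culture. It was chosen by its counts, as the most abundant sequence of these same libraries, and it is 1 of 311 distinct mature sequences in the count table, read from the row named rno-miR-21-5p. Its rank and share are therefore given as a description, with no test against the other sequences. The vesicles came from cells at 1% oxygen and 5% CO2 (hypoxia, 3 libraries) or at 21% oxygen and 5% CO2 (normoxia, 3 libraries). The cells of both groups had been flushed from tibias and femurs of male SD rats aged 4 weeks, carried no genetic change that the labels name, and were grown at 37 °C with 10% fetal bovine serum. The labels give neither the length of the low-oxygen culture nor the animals or cultures behind each library. The p-values below thus rest on library-to-library spread alone, part or all of which may be technical.

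A mature miRNA is cut from a hairpin, loaded into an Argonaute protein, and pairs with messenger RNAs mainly through its seed, the bases near its 5′ end. miR-21-5p represses Pdcd4, which restrains protein synthesis, and Reck and Spry1, which restrain matrix proteases and growth factor signalling. Its gene is transcribed under AP-1 and STAT3, TGF-β and BMP signalling favours its processing, and it is high in mesenchymal cells, in fibrosis and in many tumours. Low oxygen has been reported to raise it in several cell types. The hypoxia and normoxia libraries hold vesicle RNA, so they address its relative counts in vesicles and not its level in the cells.

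The sequences below set miR-21-5p beside 5 of its most abundant companions. Capitals mark the seed, bases 2 to 8. The 5 miRNAs shown with it are let-7c-5p and let-7i-5p, regulators of differentiation, miR-26a-5p, miR-199a-3p, a mesenchymal strand, and miR-320-3p, which is made without Drosha.
miR-21-5p: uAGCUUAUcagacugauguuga
let-7c-5p: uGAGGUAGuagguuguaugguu
let-7i-5p: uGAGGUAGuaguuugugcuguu
miR-26a-5p: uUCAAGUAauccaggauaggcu
miR-199a-3p: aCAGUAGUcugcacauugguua
miR-320-3p: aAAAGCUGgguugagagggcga
No other listed sequence had the seed of miR-21-5p, or even its bases 2 to 7. The seeds of miR-199a-3p and miR-320-3p were likewise found in no other listed sequence. By contrast, let-7c-5p shared its seed with 8 other listed sequences, and miR-26a-5p with 1. The listed sequence closest to miR-21-5p was 9 single-base edits away, whereas let-7c-5p was 1 edit from let-7a-5p. For miR-199a-3p the closest was 8 edits away and for miR-320-3p 9, so this trait is not particular to miR-21-5p. Uneven division of reads among near-identical copies is thus a limit on single let-7 members. No such copy of miR-21-5p, miR-199a-3p or miR-320-3p was listed.

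In the RefSeq rat table (GRCr8) the mature sequence occurred in 1 hairpin, Mir21, at chr10:71902600-71902691 on the minus strand, next to the gene Vmp1. The hairpin is printed because its other strand was to serve as a reference; capitals mark miR-21-5p at bases 18 to 39 and miR-21-3p at bases 56 to 77.
Mir21 hairpin: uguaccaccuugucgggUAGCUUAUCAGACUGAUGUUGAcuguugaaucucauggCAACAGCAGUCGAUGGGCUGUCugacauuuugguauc
miR-21-3p was listed in 0 of the 6 libraries, so no strand ratio and no test of it could be made. The smallest listed count was 2, the table may hold only values above a minimum, and no upper limit is set for miR-21-3p. Across the 6 libraries miR-21-5p itself had 291270 counts. Of 141 hairpins with 2 mature strands in RefSeq and at least 1 strand listed, 34 had both listed. Among the 23 hairpins whose major strand had at least 5000 counts in all, 10 had both strands listed, with a minor strand at 0.0194 to 9.52% of the pair. The most abundant of these pairs were let-7c-5p with 0.0194% let-7c-2-3p, miR-199a-3p with 2.50% miR-199a-5p, let-7a-5p with 0.0738% let-7a-1-3p, miR-99b-5p with 1.31% miR-99b-3p, and let-7d-5p with 9.52% let-7d-3p. Strands were matched by sequence. let-7c-2-3p and let-7a-1-3p each had 21 counts in 4 libraries, so both pairs may hold the same reads. let-7c-5p and let-7a-5p also each occurred in 2 RefSeq hairpins, so their percentages are not strand ratios of 1 hairpin. Several other abundant guide strands, among them let-7i-5p, miR-26a-5p and miR-100-5p, also had no listed partner.

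Library totals ran from 106954 to 248542 counts. Hypoxia 1 stood apart, with 85 listed sequences against 129 to 183 in the other 5 libraries, and with miR-320-3p at 15.4% of its counts against 0.891 to 2.92% elsewhere. All 15 mesenchymal stromal markers were listed, but several were near 0, among them miR-145-5p at a mean of 0.0100% of counts and miR-222-3p, which had counts in hypoxia 2 and hypoxia 3 alone. Their sum without miR-21-5p took 8.91 to 12.7% of counts in hypoxia and 9.91 to 10.8% in normoxia. Some markers of other sources stood above most single mesenchymal markers, with means of 0.620% for miR-122-5p and 0.538% for miR-1b, against 0.332% for miR-22-3p. Striated muscle, led by miR-1b, miR-206-3p and miR-1-3p, took 0.147 to 1.89% of counts in hypoxia and 0.324 to 0.487% in normoxia libraries. Liver or serum markers (miR-122-5p, miR-192-5p and miR-194-5p) took 0.548 to 0.787% in hypoxia and 0.504 to 0.949% in normoxia, and neural markers (miR-128-3p, miR-9a-5p and miR-129-5p) took 0.0877 to 0.425% in hypoxia and 0.122 to 0.308% in normoxia. Blood cell markers (miR-486, miR-144-5p and miR-451-5p) took 0 to 0.0583% in hypoxia and 0.0253 to 0.103% in normoxia, and 4 of its 8 members were not listed (miR-142-3p, miR-142-5p, miR-144-3p and miR-223-3p). The other strand of the miR-223 hairpin, miR-223-5p, which the list does not hold, had 105 counts over the 6 libraries. The endothelial miR-126a-3p took 0.0267 to 0.0793% in hypoxia and 0.0423 to 0.0964% in normoxia. How much of the miR-21-5p counts came from serum or other cells was not tested.

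miR-21-5p had the highest count in every one of the 6 libraries. It had 24246, 46824 and 69516 counts in hypoxia replicates 1 to 3, against 30315, 41839 and 78530 counts in normoxia replicates 1 to 3. As a share of all counts in the library this was 20.4, 32.1 and 28.0% in hypoxia, against 28.3, 20.4 and 34.6% in normoxia. The groups overlapped throughout their range: each held 1 library near 20%, 1 near 28% and 1 above 32%. The mean share was 26.8 ± 5.91% in hypoxia and 27.8 ± 7.12% in normoxia (SD, n = 3 each), a difference of -0.93 percentage points. In a two-sided exact permutation test over libraries p was 0.8, where 3 libraries against 3 cannot give less than 0.1, and the adjusted value over the 5 composition measures was 0.9. The difference was 2.27 points without hypoxia replicate 1 and 2.47 points without normoxia replicate 3, so its sign rested on single libraries. Shares are relative, so a change in miR-21-5p per vesicle and an opposite change in other RNAs cannot be told apart. They do not measure the number of vesicles.

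**Figure D1:**
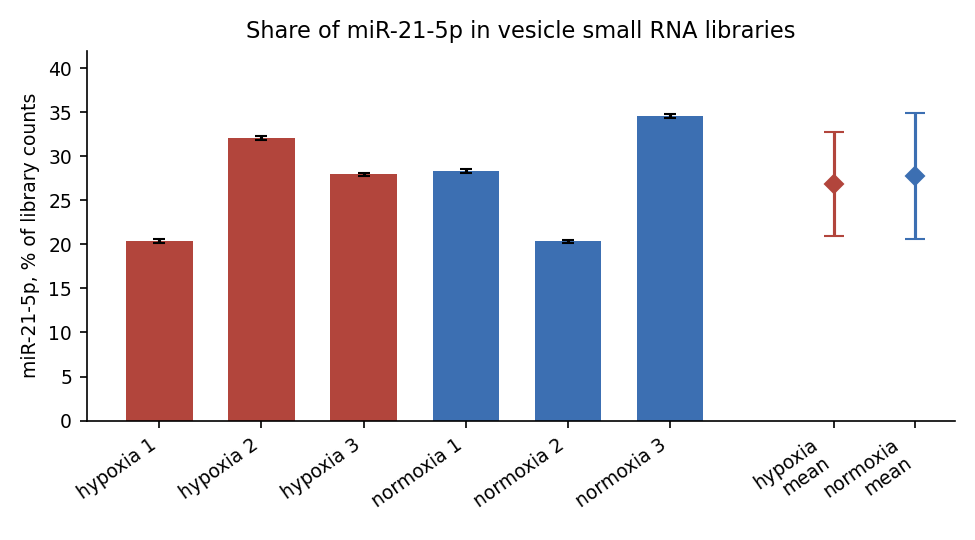
Bars give miR-21-5p as a percentage of all counts in each of the 6 libraries, with 95% exact binomial intervals for counting error, and diamonds give the mean ± SD of each group (n = 3 each). The 3 hypoxia libraries run from 20.4 to 32.1% and the 3 normoxia libraries from 20.4 to 34.6%, so the groups overlap, and the spread between libraries is far wider than the counting error.

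Counting error was small beside the spread between libraries. The 95% exact binomial interval was 31.8 to 32.3% in hypoxia 2 and 28.1 to 28.6% in normoxia 1, which reflects counting alone, because PCR copies of 1 molecule cannot be recognised in these reads. Ranked from high to low, the shares ran normoxia 3, hypoxia 2, normoxia 1, hypoxia 3, hypoxia 1 and normoxia 2. Neighbours in that order were separated by more than their intervals except normoxia 1 and hypoxia 3, which differed by 0.374 points, and hypoxia 1 and normoxia 2, which differed by 0.0691 points. Among the 55 other sequences listed in every library, 5 had a smaller coefficient of variation over the 6 libraries than the 21.5% of miR-21-5p. All 5 were among the 10 next most abundant sequences: let-7a-5p (13.8%), let-7c-5p, miR-100-5p, let-7b-5p (20.6%) and miR-26a-5p. The other members of those 10 had larger values, among them let-7i-5p at 22.6% and miR-320-3p at 136%. The median coefficient of variation of all 55 was 41.0%. Many of the 55 were much scarcer, so this median is not a comparison at like abundance.

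The lead of miR-21-5p over the next most abundant sequence varied from library to library. It had 1.33, 2.76 and 2.83 times the counts of the next sequence in hypoxia, against 2.25, 1.54 and 3.08 times in normoxia. The next sequence was miR-320-3p in hypoxia 1, let-7c-5p in hypoxia 2, hypoxia 3 and normoxia 1, and let-7i-5p in normoxia 2 and normoxia 3. miR-21-5p made up 26.7, 37.2 and 34.3% of the counts of the top 10 sequences in hypoxia, against 34.7, 25.1 and 41.8% in normoxia. Hypoxia 1 and normoxia 2 thus had the smallest share, the smallest lead and the smallest part of the top 10.

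These libraries with nearly equal shares of miR-21-5p differed in what stood beside it. The let-7 and miR-98 family, 9 guide strands here, took 33.0% of counts in hypoxia 1, the lowest share of any library, and 48.7% in normoxia 2, the highest. With miR-320-3p left out of the total, miR-21-5p took 24.1% in hypoxia 1 and 20.7% in normoxia 2. With the let-7 family left out instead, it took 30.5% in hypoxia 1 and 39.7% in normoxia 2. Against the let-7 family as a whole, miR-21-5p had 0.620, 0.746 and 0.707 counts per let-7 count in hypoxia, against 0.707, 0.418 and 0.954 in normoxia. The hypoxia values were closer together than the normoxia values, and the normoxia values reached both extremes. miR-21-5p and the let-7 family together held 53.4, 75.1 and 67.5% of counts in hypoxia, against 68.4, 69.1 and 70.8% in normoxia.

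Shares of a library sum to 100%, so the size of miR-21-5p sets the scale of every other share. Leaving it out of the total multiplied each of the other shares by 1.26, 1.47 and 1.39 in hypoxia 1 to 3, against 1.40, 1.26 and 1.53 in normoxia 1 to 3. Between any 2 libraries this scale differed by at most 1.22-fold, or 0.28 on the log2 scale. Between the groups it nearly cancelled, with a mean factor of 1.37 ± 0.109 in hypoxia and 1.39 ± 0.136 in normoxia (SD, n = 3 each). Removing miR-21-5p therefore moved the mean log2 difference in share, hypoxia minus normoxia, by -0.02 for every other sequence alike. Among the 55 others listed in every library, 32 differences lay above 0 and 23 below with miR-21-5p in the total, and 31 above and 24 below without it. The 1 sequence that crossed 0 was miR-125b-5p, at 0.0040 with miR-21-5p in the total and -0.016 without it. Without hypoxia 1 the shift was 0.042 and 4 sequences crossed.

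**Figure D2:**
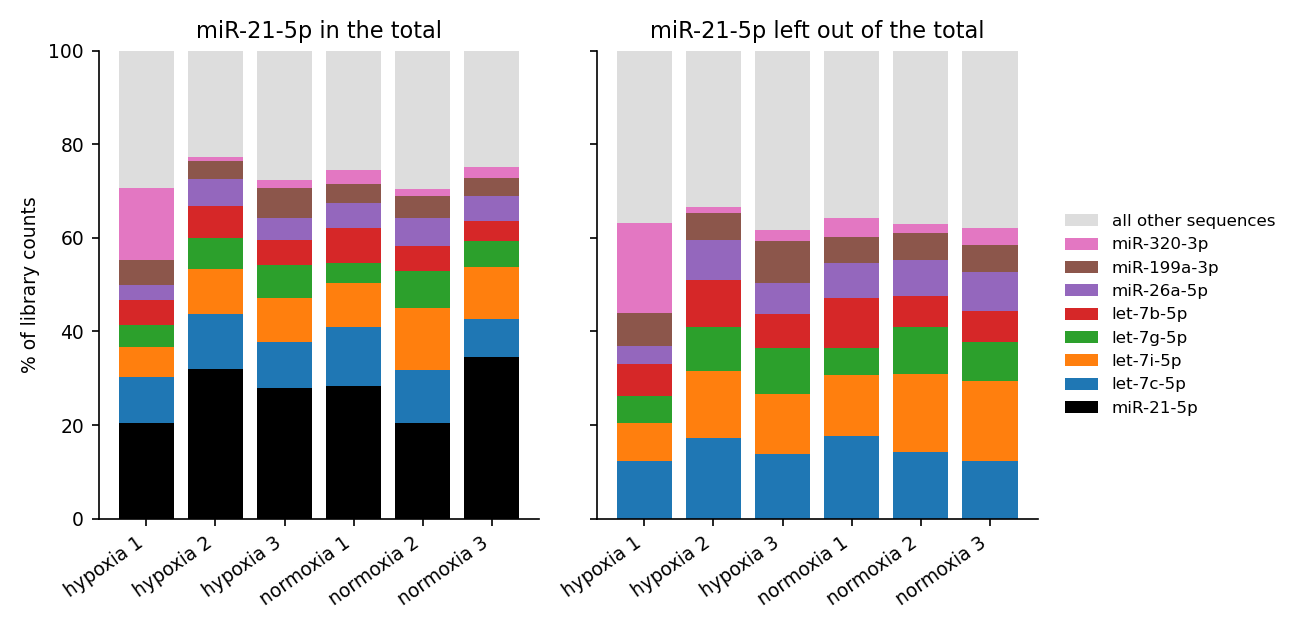
Stacked bars give the percentage of library counts held by miR-21-5p (black), the 7 next most abundant sequences and all others (grey) in each library, with miR-21-5p in the total on the left and left out on the right. The black segment runs from 20.4 to 34.6%; on the right the leading sequence of each library holds 13.7 to 19.3%, and miR-320-3p stands out in hypoxia 1 in both panels.

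The 10 next most abundant sequences were let-7c-5p, let-7i-5p, let-7g-5p, let-7b-5p, miR-26a-5p, miR-199a-3p, miR-320-3p, let-7f-5p, miR-100-5p and let-7a-5p, with mean shares of 10.6% for let-7c-5p down to 2.69% for let-7a-5p, or 14.6% down to 3.70% with miR-21-5p left out. let-7c-5p took 10.4 ± 1.03% of all counts in hypoxia and 10.7 ± 2.37% in normoxia (SD, n = 3 each). With miR-21-5p left out of the total it took 14.4 ± 2.46% in hypoxia and 14.8 ± 2.67% in normoxia (SD, n = 3 each). let-7i-5p took 8.50 ± 1.74% in hypoxia and 11.3 ± 1.91% in normoxia, and 11.8 ± 3.21% in hypoxia and 15.6 ± 2.17% in normoxia once miR-21-5p was left out (SD, n = 3 each). For each of the 10 the groups overlapped with miR-21-5p in the total and also without it. Among all 55 others listed in every library, the groups did not overlap for 3 with miR-21-5p in the total and for 2 without it. The largest sequence left was at 13.7 to 19.3% of a library, compared with 20.4 to 34.6% for miR-21-5p. Variation between libraries fell for 39 of the 55 sequences and grew for 16 when miR-21-5p was left out, with a median coefficient of variation of 38.5% without it and 41.0% with it. Among the 10 it grew for let-7c-5p, let-7i-5p, let-7b-5p, miR-26a-5p and miR-100-5p. It fell for let-7g-5p, miR-199a-3p, miR-320-3p, let-7f-5p and let-7a-5p.

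The libraries were more alike in evenness once miR-21-5p was left out. The effective number of sequences, the exponential of the Shannon entropy of the shares, was 19.1, 13.8 and 16.4 in hypoxia, against 15.9, 17.6 and 14.0 in normoxia. Without miR-21-5p it was 21.6, 18.9 and 21.3 in hypoxia, against 20.7, 19.4 and 21.2 in normoxia. The ratio of the highest to the lowest library was 1.39 with miR-21-5p and 1.14 without it. In two-sided exact permutation tests the groups differed by 0.554 with miR-21-5p in the table (p = 0.8) and by 0.124 without it (p = 0.9), with adjusted values of 0.9 over the 5 measures. Without hypoxia replicate 1 these differences were -0.795 and -0.377, and without normoxia replicate 3 the value with miR-21-5p in the table was -0.355. Without miR-21-5p the sign also turned without hypoxia replicate 3, at -0.232, and without normoxia replicate 2, at -0.383.

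edgeR's quasi-likelihood test on the whole count table gave no call for miR-21-5p. Its level, in CPM scaled by TMM factors, was 164061, 346192 and 280273 in hypoxia, against 293649, 204854 and 381907 in normoxia. The groups overlapped, and the lowest and highest value were in hypoxia 1 and normoxia 3. The mean level was 263509 ± 92216 CPM in hypoxia and 293470 ± 88527 CPM in normoxia (SD, n = 3 each). Hypoxia over normoxia, the log2 fold change of miR-21-5p was -0.16 (SE 0.36), with an adjusted p of 0.998 (Benjamini-Hochberg over 107 tested sequences) in edgeR. Its 95% interval ran from -0.94 to 0.63 on the log2 scale, or from 0.523 to 1.54-fold, so changes within those limits in either direction remain compatible with these counts. The fold change was 0.32 without hypoxia replicate 1 and 0.17 without normoxia replicate 3. In the same test 0 of 107 sequences (0%) were called higher and 0 (0%) lower, and 1 (0.935%) had an unadjusted p under 0.05, while DESeq2 called 0 with 1 and limma-voom 0 with 4 at that level.

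**Figure D3:**
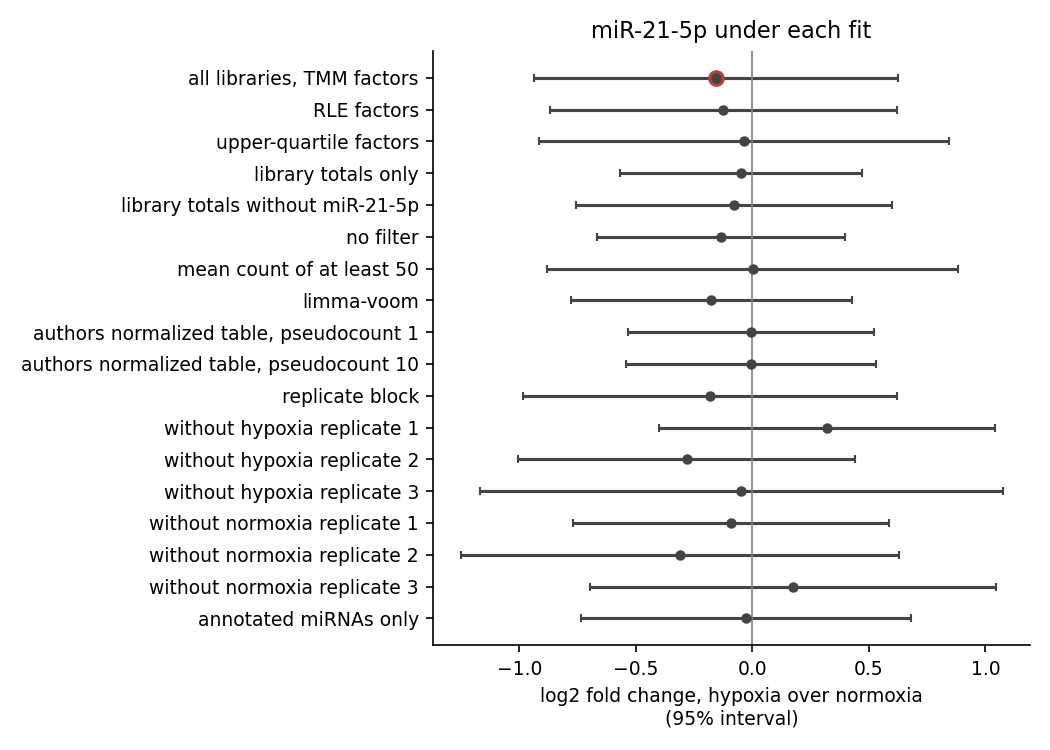
Points give the log2 fold change of miR-21-5p, hypoxia over normoxia, under each fit that yields an interval, and lines give 95% intervals. The top row, with a larger red point, is edgeR with all 6 libraries and TMM factors. Every interval crosses 0, and the values run from -0.31 without normoxia replicate 2 to 0.32 without hypoxia replicate 1.

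The biological coefficient of variation of miR-21-5p in the edgeR fit was 0.407, against a common value of 1.07 for the table. It was 0.388 to 0.677 among the 10 next most abundant sequences, with let-7b-5p at 0.406 and let-7a-5p at 0.410. A value this low was thus not particular to miR-21-5p. Of the 107 sequences, 12 had a smaller standard error than miR-21-5p. The median standard error was 1.44 for all tested sequences, but 0.415 among the 38 whose mean exceeded 1000 CPM, close to the 0.36 of miR-21-5p. Because the TMM factor of hypoxia 1 was 1.25 and those of the others 0.905 to 0.998, the CPM scale lowers hypoxia 1 relative to its plain share. With library totals only, the log2 fold change was -0.05 (SE 0.25). The median fold change of all other sequences moved with the scaling as well, from -0.13 with TMM factors to -0.0082 with upper-quartile factors. Relative to that median, miR-21-5p stood at -0.023 with TMM, -0.019 with RLE, -0.028 with upper-quartile and -0.013 with no factors.

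Ratios to other sequences of the same library do not depend on the total. miR-21-5p exceeded each of the 10 next most abundant sequences in all 6 libraries. Against let-7i-5p it had 3.14, 3.29 and 3.03 times the counts in hypoxia, against 3.00, 1.54 and 3.08 times in normoxia. The ratio was close to 3 in 5 libraries and about 1.5 in normoxia 2 alone, and the groups overlapped. Against miR-100-5p it had 7.26, 10.5 and 7.60 times the counts in hypoxia, against 6.82, 7.85 and 9.55 times in normoxia. Of these 10 log2 ratios, 4 were higher and 6 lower on average in hypoxia, 0 had groups that did not overlap, and each had an adjusted value of 1 in two-sided exact permutation tests, with a smallest unadjusted p of 0.2. Without hypoxia 1, 4 of the 10 differences changed sign. Relative to the mean log2 count of the 55 sequences listed in every library, miR-21-5p stood at 6.59 ± 0.681 in hypoxia and 6.76 ± 0.453 in normoxia (SD, n = 3 each), a difference of -0.17 (two-sided exact permutation p = 0.7, adjusted 0.9). That difference was 0.20 without hypoxia replicate 1 and 0.063 without normoxia replicate 3. Relative to all counts other than its own, the mean log2 ratio of miR-21-5p was -1.47 ± 0.449 in hypoxia and -1.41 ± 0.527 in normoxia (SD, n = 3 each), a difference of -0.061 (two-sided exact permutation p = 0.8, adjusted 0.9), and 0.19 without hypoxia replicate 1 and 0.18 without normoxia replicate 3.

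The sequences that kept the steadiest ratio to miR-21-5p were found by the SD of that log2 ratio over the 6 libraries, among the 55 listed in all of them. The lowest SD was 0.241, for miR-100-5p, followed by miR-26a-5p (0.356), miR-191a-5p (0.412), miR-125b-5p (0.413) and let-7i-5p (0.417), against a median of 0.740. These points share their libraries and the counts of miR-21-5p, and the SDs are a description with no test. Per 100 counts of miR-21-5p there were 13.8, 9.54 and 13.2 of miR-100-5p in hypoxia, against 14.7, 12.7 and 10.5 in normoxia. Per 100 counts of miR-21-5p there were 15.0, 17.9 and 17.2 of miR-26a-5p in hypoxia, against 18.9, 29.7 and 15.6 in normoxia. The highest ratio was in normoxia 2 for miR-26a-5p and let-7i-5p, in hypoxia 1 for miR-191a-5p and miR-125b-5p, and in normoxia 1 for miR-100-5p. Without hypoxia 1, 3 of the 5 were again among the 5 steadiest, but the order changed. miR-22-3p then had the lowest SD, 0.179 against 1.08 with all libraries, followed by miR-143-3p at 0.209 against 0.669, and miR-100-5p was in place 4 at 0.253. The SD without hypoxia 1 was 0.238 for miR-125b-5p, 0.267 for miR-191a-5p, 0.362 for miR-26a-5p and 0.455 for let-7i-5p, which was in place 11.

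The least steady ratios belonged to miR-9a-5p, a neural miRNA (SD 2.24), miR-320-3p (1.61), the muscle miRNA miR-1b (1.57), an unannotated sequence (1.46) and miR-140-3p, known from cartilage (1.44). All 5 were highest in hypoxia 1. Per 100 counts of miR-21-5p there were 75.2, 2.78 and 5.95 of miR-320-3p in hypoxia, against 10.3, 7.18 and 6.69 in normoxia. Without hypoxia 1 the SD was 0.695 for miR-320-3p and 1.15 for miR-9a-5p.

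**Figure D4:**
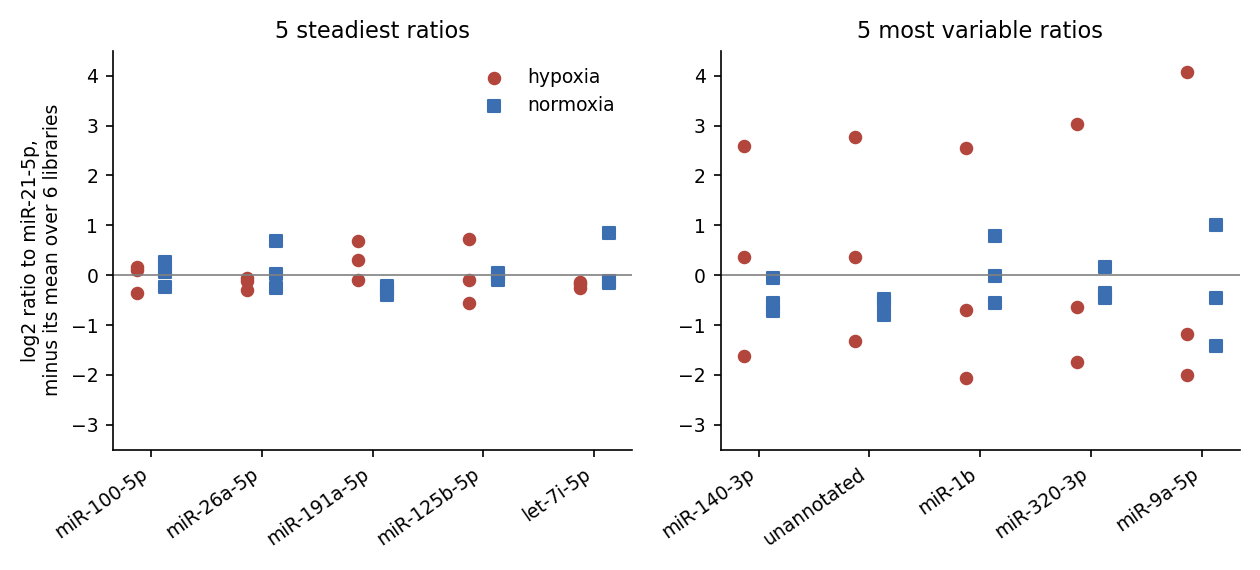
Each point is the log2 ratio of a sequence to miR-21-5p in 1 library, minus its mean over the 6 libraries, with hypoxia as circles and normoxia as squares. The 5 steadiest ratios on the left have SDs of 0.241 to 0.417 and the 5 most variable on the right 1.44 to 2.24; the highest point of each sequence on the right is hypoxia 1.

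miR-21-5p outweighed the other members of each list of related miRNAs described here. It was chosen as the most abundant sequence, so its large part of such a list follows largely from that choice. In the list of mesenchymal stromal markers it took 63.4 to 78.3% of the list's counts. The other 14 members together held 11.1 ± 1.97% of all counts in hypoxia and 10.2 ± 0.518% in normoxia, led by miR-199a-3p and miR-100-5p, and 15.2 ± 2.27% in hypoxia and 14.3 ± 1.57% in normoxia with miR-21-5p left out of the total (SD, n = 3 each). Of these others 13 were tested, 0 were called in either direction, and 6 had a value above 0 and 7 below, with a median log2 fold change of -0.05, or 0.16 without hypoxia 1. The median over all other tested sequences was -0.13, or 0.15 without hypoxia 1.

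Among fibrosis-linked miRNAs miR-21-5p took 98.1 to 99.3% of the list's counts, and the next members, miR-199a-5p and miR-29a-3p, were scarce. The other listed members held 0.318 ± 0.149% of counts in hypoxia and 0.330 ± 0.0520% in normoxia (SD, n = 3 each). Of 4 tested, 0 were called, with 2 above 0, 2 below and a median of -0.019, or 0.53 without hypoxia 1. Among hypoxia-induced miRNAs it took 72.9 to 84.3% of the list's counts, ahead of miR-26a-5p and miR-24-3p. Of 10 tested others 0 were called, with 2 above 0, 8 below and a median of -0.37, or 0.14 without hypoxia 1, beside -0.13 and 0.15 over all other tested sequences. miR-210-3p, the canonical low-oxygen miRNA, had 0, 21 and 44 counts in hypoxia, against 0, 0 and 85 in normoxia. Its counts were thus too few to check the oxygen labels.

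In the authors' normalized table miR-21-5p had values of 48640, 88968 and 72189 in hypoxia, against 70905, 48569 and 91895 in normoxia. The 2 lowest values were hypoxia 1 and normoxia 2 and the 2 highest hypoxia 2 and normoxia 3, as for the shares of raw counts. The difference in share was -0.933 points in both tables. The normalized values rest on the same counts, so this order is not separate evidence. limma on that table gave a log2 fold change of -0.0062 (SE 0.27), with an adjusted p of 0.982.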

How the data were processed

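Small RNA from BMSC vesicles was measured in 6 libraries, 3 for each oxygen level. The authors deposited raw tag counts per mature miRNA and precursor, per the file headers, and a table of normalized tag counts. Those normalized values are whole numbers made by the authors with a method not given in the sources used here, and were treated as a score. Per the submitters' processing notes, the tools were cutadapt 1.9.3 and Novoalign 3.02.12 and the build was rn6, without roles. Blank cells were taken as 0, and 353 rows were reduced to 311 distinct sequences; 0 sample columns were left unused. edgeR 4.0.16 in R 4.3.3 was run with filterByExpr (minimum count 10, minimum total 15, with 107 kept and 204 left out), TMM factors and robust glmQLFit. The threshold was 0.05 on the Benjamini-Hochberg adjusted p. The fit was also run on simulated counts with less spread than these libraries and large planted changes. That run does not measure its sensitivity in these data. Single values were compared by exact permutation in scipy 1.17.1. SEs were derived from the F statistic. Alternatives used DESeq2 1.42.0, limma 3.58.1 with a pseudocount of 1 or 10, other factors, filters, denominators and omitted libraries. miR-21-5p, the lists (mesenchymal stromal, fibrosis-linked, hypoxia-induced and 5 of other sources) and the tests were chosen with earlier results of these data known, and 1 further list is not reported here. Named miRNAs are those with the seed of miR-21-5p, the 10 next most abundant, the 5 steadiest and 5 least steady ratios, the 5 most abundant strand pairs, the leading 3 of each list and miR-210-3p; miR-223-5p, the near-absent or unlisted markers, and miR-22-3p and miR-143-3p as steady ratios were named after their values were seen. Sequences and coordinates of the hairpin are from RefSeq, GRCr8, in which 10 of the 11 most abundant sequences matched, and that of miR-320-3p is from the count table.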

Additional observations from a re-analysis of the deposited data

How the results depend on the processing

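The counts of 0 sequences called higher and 0 lower in edgeR held under all 19 alternatives, among them DESeq2 and limma-voom, with 0 to 6 at an unadjusted p under 0.05. The log2 fold change of miR-21-5p kept its sign in 15 of 18 alternatives and passed no threshold, with adjusted p-values from 0.890 to 1.000. It was 0.0011 with a mean count of at least 50, and -0.31 to 0.32 with each library left out. The difference in share was -2.75 points with the let-7 family left out of the total and -0.101 with miR-320-3p left out. It ran from -4.63 to 2.47 points with each library left out, the log2 ratio to all other counts from -0.34 to 0.19, and the log2 ratio to the 55 sequences from -0.43 to 0.20. With the 10 most abundant others in place of the 55 sequences that ratio was -0.032, and with those of at least 50 counts in every library -0.089. With miR-320-3p left out of the total, the log2 ratio to all other counts was 0.014. The effective number differed by -0.795 to 1.88 with each library left out, and without miR-21-5p by -0.383 to 0.982. It differed by -0.0563 without miR-21-5p in annotated miRNAs only. The cause was not tested. Whether the replicate number pairs the libraries is not known. Deviations from the group mean correlated at 0.228, 0.0313 and 0.124 for libraries of the same number, 1 to 3. Between libraries of different numbers the correlations ran from -0.299 to 0.201. With 3 libraries per group these values cannot decide whether the libraries are paired. With the number as a replicate block the fold change was -0.18, with 0 calls. A balanced block cannot move the other differences, whose exact permutation p-values were 0.75 to 1 with it and 0.7 to 0.9 without. The strand ratio and its alternatives were not run, since miR-21-3p was not listed.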
